A study of Zea mays with 9 samples.

Results

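The genes described here are 10 maize aquaporin genes, taken by their gene IDs from a table of 39301 genes measured by RNA sequencing of germinating seed. They comprise a pair of tonoplast intrinsic protein genes (tip2b and tip2), the nodulin 26-like gene nip2b, and 7 plasma membrane intrinsic protein (PIP) genes, ZmPIP1-1, ZmPIP1-5, ZmPIP2-1, ZmPIP2-2, ZmPIP2-4, ZmPIP2-5 and ZmPIP2-6. They were taken by ID, with no threshold on a measured value, but the set was chosen with earlier results of these data known. In the RefSeq gene table used for names, the symbols of all 10 IDs were locus numbers, and each ID had an aquaporin name among its synonyms. The PIP and TIP names fit the description as plasma membrane and tonoplast aquaporins, while the name of nip2b states neither membrane. The protein sequences were not used here.

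The libraries form 3 groups of 3 biological replicates, all from maize seed at germination. The CK group carries no explanation in the labels, and CK is a common label of an untreated control. By their labels, the NaCl group had salt and the NaCl+MT group salt and exogenous melatonin (MT), an indoleamine whose part in salt tolerance at germination is the study's stated question. Dose, time, seed genotype and the order in which salt and melatonin were given are not in the labels. The replicates are numbered 1 to 3 within each group.

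Aquaporins are membrane channels that let water, and in some subfamilies small neutral solutes, cross along a gradient. PIPs sit mainly in the plasma membrane, where PIP2 proteins form efficient water channels on their own, while in maize PIP1 proteins reach the plasma membrane when they associate with a PIP2. TIPs sit in the membrane of the vacuole, the tonoplast, and nodulin 26-like proteins carry metalloids such as silicic acid and boric acid. A germinating seed first takes up water by imbibition and then by the expansion of growing cells, the phase in which aquaporin genes of embryo tissues are known to be active.

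Each value is an FPKM (fragments counted for a gene, scaled to its length and to library size), as the authors deposited it, a scale that corrects for gene length, so levels can be set beside each other between genes. Relative to CK replicate 1, sequencing depth was 0.538 in NaCl replicate 3 and 0.891 to 1.82 in the remaining libraries, as estimated from the steps between low FPKM values. NaCl replicate 3 listed 12558 genes at 0, against 9986 to 10802 elsewhere. The absolute depth is unknown, so no counting intervals are given. All 10 aquaporin genes passed the minimum for testing (3 or more libraries at 1 FPKM or above), as did 22379 genes in all. Of the 10, nip2b reached 1 FPKM in 6 libraries, those of CK and NaCl+MT, and in no NaCl library. Fold changes are differences of log2(FPKM + 1) between groups from limma's moderated test, with a pseudocount of 1 that draws the changes of low genes towards 0. P-values are 2-sided, adjusted by Benjamini-Hochberg over all tested genes of a comparison, and a gene is called at an adjusted p under 0.05.

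With salt, 5 of the 10 aquaporin genes were called lower and none higher relative to CK, against 12.4% and 13.6% of all tested genes. Both TIP genes, nip2b, ZmPIP2-2 and ZmPIP2-5 were lower, by 1.43 to 3.44 on the log2 scale. In each of the 5 every NaCl library lay below every CK library, as held for 18.1% of tested genes. ZmPIP1-1, ZmPIP1-5, ZmPIP2-1, ZmPIP2-4 and ZmPIP2-6, the 5 most abundant members in each group, were not called. With melatonin added to salt, the same 5 genes were called higher than with salt alone, against 11.6% of tested genes. None of the 10 was called between NaCl+MT and CK, where 0.961% of tested genes were called in either direction. Any pair of comparisons shares the libraries of a group, so values of different comparisons are not independent of one another. Seed tissue was sequenced in bulk, so fewer cells of a type and less RNA per cell cannot be told apart in any of these values.

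**Figure D1:**
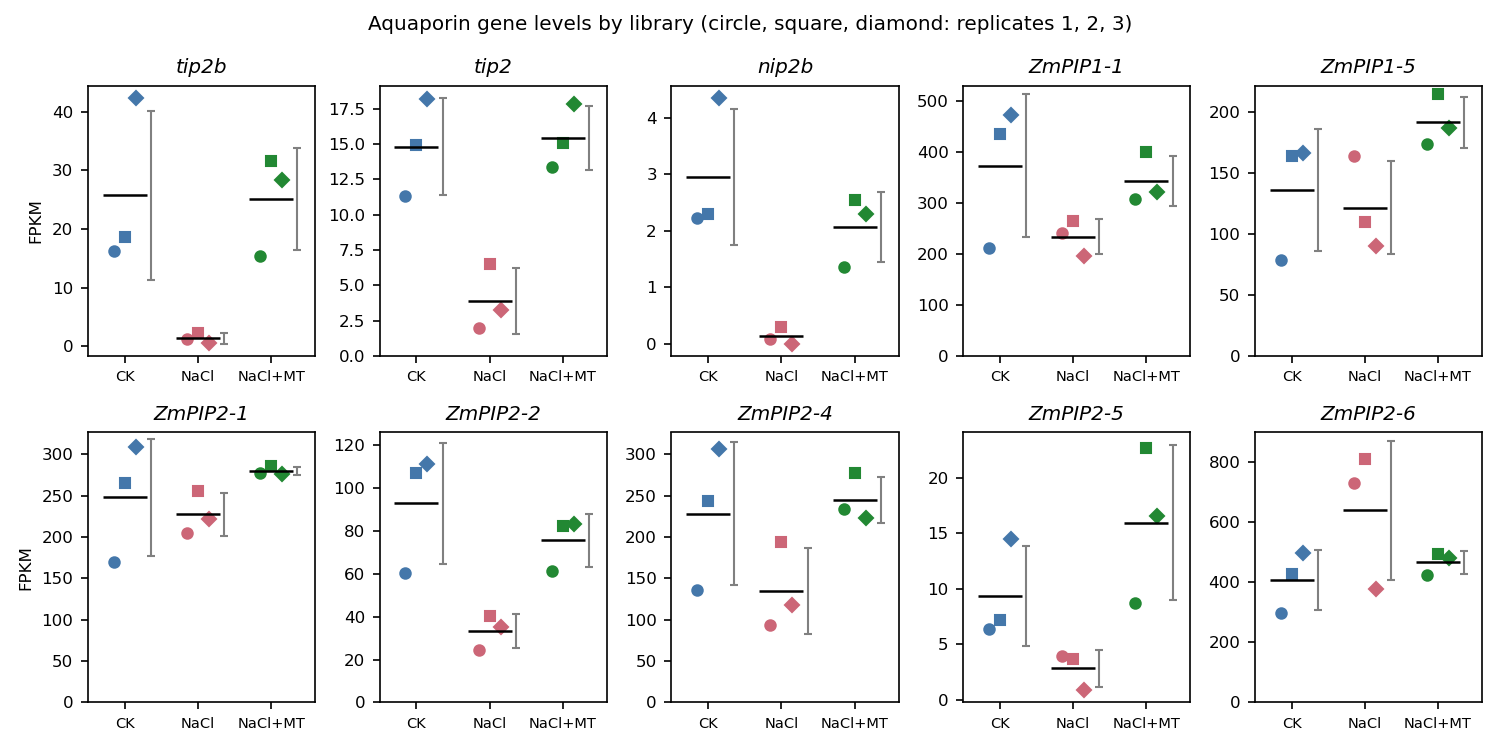
FPKM of the 10 aquaporin genes in each library, 1 panel per gene on its own linear axis. Circles, squares and diamonds are replicates 1, 2 and 3, horizontal lines give the mean of 3 libraries and bars beside the points the SD, with no SD bar for nip2b in NaCl, where a library is listed at 0. In tip2b the NaCl libraries lie at 0.510 to 2.31, below the lowest CK value of 16.3.

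The gene tip2b (GRMZM2G056908, also named TIP2-2) encodes a tonoplast channel of the TIP2 group. It stood at 16.3, 18.7 and 42.3 FPKM in CK replicates 1 to 3, at 1.28, 2.31 and 0.510 in NaCl, and at 15.3, 31.6 and 28.4 in NaCl+MT. The 3 NaCl libraries lay far below the other 6, and the CK and NaCl+MT libraries overlapped. The mean was 25.7 ± 14.4 (SD, n = 3) in CK and 1.37 ± 0.902 in NaCl, so the NaCl mean was 5.31% of the CK mean. On the log2 scale the fall was -3.44 (SE 0.39, 95% interval -4.31 to -2.57, limma adjusted p = 0.000189). Between NaCl and NaCl+MT the gene rose by 3.47 (SE 0.39, adjusted p = 0.000291), with an NaCl+MT mean of 25.1 ± 8.64 that was 18.4-fold that of NaCl. The difference between NaCl+MT and CK was 0.03 (95% interval -0.84 to 0.90, adjusted p = 0.98).

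Its relative tip2 (GRMZM2G168439, also named TIP1-2) encodes a TIP1 channel, the group that marks the large vacuoles of growing cells. Levels were 11.3, 14.95 and 18.2 FPKM in CK, 1.96, 6.50 and 3.24 in NaCl, and 13.4, 15.1 and 17.8 in NaCl+MT. Again the NaCl libraries formed a separate low set, with replicate 2 the highest of them. The NaCl mean of 3.90 ± 2.34 was 26.3% of the CK mean of 14.8 ± 3.45, and the log2 fold change was -1.78 (SE 0.30, limma adjusted p = 0.00186). In NaCl+MT the mean was 15.4 ± 2.25, higher than in NaCl by 1.84 (SE 0.30, adjusted p = 0.00217) and apart from CK by 0.07 (95% interval -0.59 to 0.73, adjusted p = 0.934). Summed, the 2 TIP genes gave 27.6 to 60.5 FPKM per library in CK, 3.24 to 8.81 in NaCl and 28.7 to 46.7 in NaCl+MT.

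The third fall outside the PIPs was that of nip2b (GRMZM2G137108, also named NIP2-2), of a group that in rice includes silicic acid transporters. It was a rare transcript, at 2.23, 2.29 and 4.35 FPKM in CK. In NaCl it stood at 0.081 and 0.301 in replicates 1 and 2 and was listed at 0 in replicate 3, the shallowest library. NaCl+MT libraries gave 1.36, 2.55 and 2.29. All NaCl values lay below all the others. The log2 fold changes were -1.78 (SE 0.23, limma adjusted p = 0.000448) for NaCl against CK and 1.43 (SE 0.23, adjusted p = 0.00228) for NaCl+MT against NaCl. At such levels the pseudocount sets the size of the change, and with 0.1 in place of 1 these values were -3.91 and 3.44. Between NaCl+MT and CK the difference was -0.35 (95% interval -0.86 to 0.17, adjusted p = 0.469).

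Both PIP1 genes were abundant and neither was called in any comparison. ZmPIP1-1 (GRMZM2G174807) encodes a PIP1, the class that works together with PIP2 partners. Its values were 213, 435 and 473 FPKM in CK, 241, 265 and 197 in NaCl, and 309, 399.7 and 323 in NaCl+MT. CK replicate 1 lay within the NaCl range, and the NaCl libraries were below the other 2 CK libraries and below all NaCl+MT libraries. The log2 fold change was -0.60 (SE 0.29, 95% interval -1.24 to 0.04, limma adjusted p = 0.153) for NaCl against CK and 0.55 (SE 0.29, adjusted p = 0.216) for NaCl+MT against NaCl. Without CK replicate 1 the first became -0.96 (adjusted p = 0.0162), which is past the threshold.

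ZmPIP1-5 (GRMZM2G081843), the other PIP1, had 78.2, 164 and 166 FPKM in CK, 164, 109.8 and 90.2 in NaCl, and 173, 214 and 186 in NaCl+MT. Its NaCl and CK libraries were intermixed, with a log2 fold change of -0.13 (95% interval -0.80 to 0.54, limma adjusted p = 0.787). All NaCl+MT libraries were above all libraries of both other groups, by 0.69 relative to NaCl (SE 0.30, adjusted p = 0.142) and by 0.56 relative to CK (SE 0.30, adjusted p = 0.357), neither past the threshold. It was the 1 member of 10 whose NaCl+MT and CK libraries did not overlap, a pattern (NaCl+MT above CK) that 21.1% of tested genes showed. The difference from NaCl was called without NaCl replicate 1 (0.93, adjusted p = 0.0491) and with weights estimated per library (0.84, adjusted p = 0.0232).

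Among the 5 PIP2 genes, ZmPIP2-2 and ZmPIP2-5 fell with salt. ZmPIP2-2 (GRMZM2G092125, also named pip2b) stood at 60.3, 107 and 111 FPKM in CK, 24.6, 40.2 and 35.3 in NaCl, and 61.2, 82.6 and 83.1 in NaCl+MT. NaCl libraries were all below the lowest CK and NaCl+MT libraries, which overlapped each other. The mean went from 92.9 ± 28.3 in CK to 33.4 ± 7.99 in NaCl, 35.9% of the CK mean, which is -1.43 on the log2 scale (SE 0.26, adjusted p = 0.00293 in limma). It was 75.6 ± 12.5 in NaCl+MT, a rise of 1.17 from NaCl (SE 0.26, adjusted p = 0.0111) and a difference of -0.26 from CK (95% interval -0.83 to 0.32, adjusted p = 0.647).

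ZmPIP2-5 (GRMZM2G178693), described in maize roots as a water channel of the outer and inner barrier cell layers, was the least abundant PIP here. It had 6.37, 7.19 and 14.5 FPKM in CK, 3.90, 3.69 and 0.849 in NaCl, and 8.70, 22.7 and 16.6 in NaCl+MT. NaCl replicate 3 was the lowest of the 9 libraries, and all NaCl libraries were below the rest. The fall was -1.49 (SE 0.44, limma adjusted p = 0.0299), and the rise from NaCl to NaCl+MT was 2.19 (SE 0.44, adjusted p = 0.00651), the NaCl+MT mean being 5.68-fold that of NaCl. The call for the fall depended on single libraries, though its direction did not. The fold change was -1.62 without CK replicate 2 (adjusted p = 0.0505), -1.15 without CK replicate 3 (adjusted p = 0.108) and -1.03 without NaCl replicate 3 (adjusted p = 0.0839). Relative to CK, NaCl+MT differed by 0.70 (95% interval -0.26 to 1.67, adjusted p = 0.429).

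The remaining PIP2 genes were not called. ZmPIP2-4 (GRMZM2G154628), a water channel gene, stood at 136, 243 and 306 FPKM in CK, 94.0, 193 and 118 in NaCl, and 234, 277 and 223 in NaCl+MT. NaCl replicate 2 reached into the CK range, while all NaCl libraries lay below all NaCl+MT libraries. Its log2 fold changes were -0.74 for NaCl against CK (SE 0.32, limma adjusted p = 0.114) and 0.91 for NaCl+MT against NaCl (SE 0.32, adjusted p = 0.0733). These passed the threshold without CK replicate 1 (adjusted p = 0.0344 and 0.041) or without NaCl replicate 2 (0.0352 and 0.0252), and the second also with the replicate number as a block (0.0472).

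ZmPIP2-1 (GRMZM2G014914), another PIP2 water channel gene, varied least, with 169.8, 265 and 309 FPKM in CK, 204, 256 and 222 in NaCl, and 278, 285 and 276 in NaCl+MT. The NaCl libraries lay inside the CK range, and below the NaCl+MT libraries by a narrow margin. The difference between NaCl and CK was -0.09 (95% interval -0.58 to 0.40, limma adjusted p = 0.805), and that between NaCl+MT and NaCl was 0.31 (95% interval -0.19 to 0.80, adjusted p = 0.381).

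ZmPIP2-6 (GRMZM2G047368) was the most abundant of the 10 genes in every group, and 88 tested genes had a higher mean FPKM. It stood at 299, 429 and 496 FPKM in CK, 730.4, 812 and 377 in NaCl, and 423, 495 and 482 in NaCl+MT. NaCl replicates 1 and 2 were above all other libraries, and replicate 3 was within the CK range. This was the 1 member whose fold change was positive with salt, 0.60 (SE 0.30, 95% interval -0.07 to 1.28, limma adjusted p = 0.17), and negative from NaCl to NaCl+MT, -0.38 (SE 0.30, adjusted p = 0.425). The call turned on NaCl replicate 3, without which the difference between NaCl and CK was 0.95 (adjusted p = 0.0289).

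**Figure D2:**
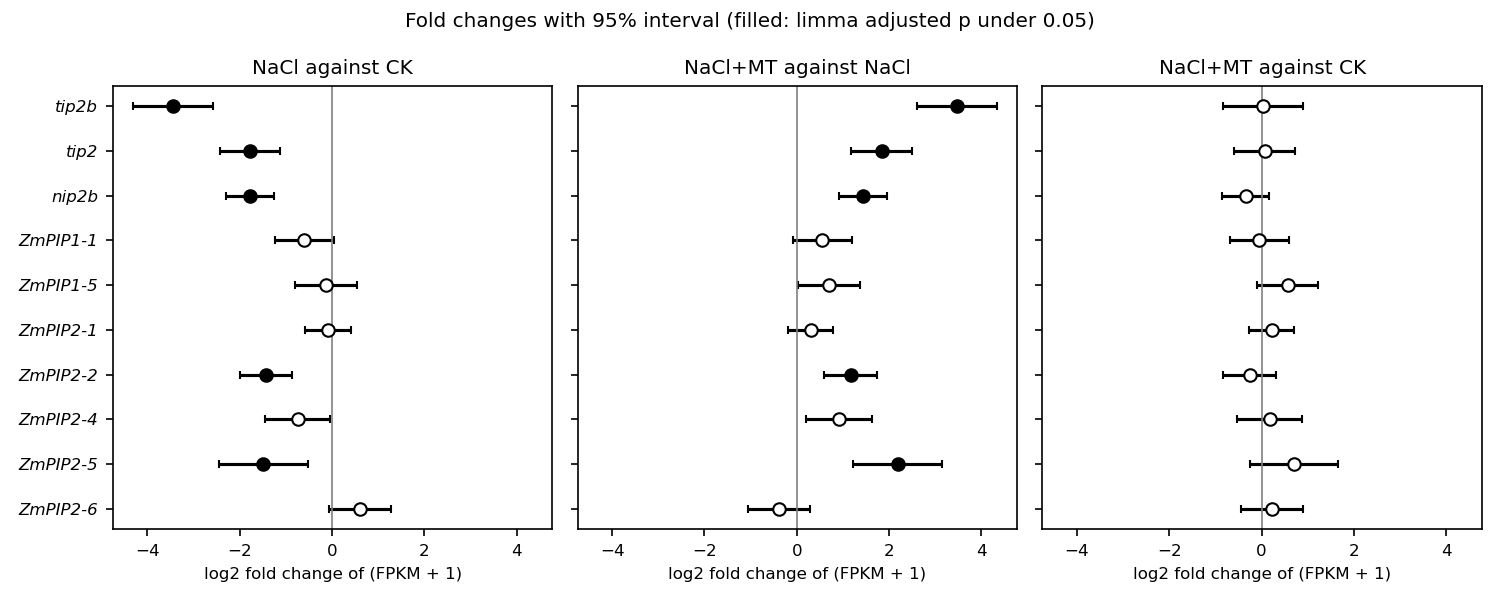
Log2 fold changes of (FPKM + 1) of the 10 aquaporin genes in the 3 comparisons, 1 panel each, with 95% intervals from the limma fit over 9 libraries. Filled points have an adjusted p under 0.05: tip2b, tip2, nip2b, ZmPIP2-2 and ZmPIP2-5 are filled below 0 in NaCl against CK and above 0 in NaCl+MT against NaCl, and no point is filled in NaCl+MT against CK.

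Counted against CK, 5 of 10 members were called lower in NaCl, where 12.4% of all tested genes were called lower, and 0 were called higher, against 13.6% of all tested genes. At an unadjusted p under 0.05, limma gave 6 members lower and 0 higher, beside 4084 lower and 4674 higher of 22379 tested genes. The 5 called members were also the 5 whose groups did not overlap in that direction, as held for 18.1% of tested genes. The median log2 fold change of the members was -1.08, beside 0.03 over all tested genes. Within the PIPs 2 of 7 were lower and 0 higher, with a median of -0.60. The members were chosen with earlier results of these data known, and nip2b passed the minimum for testing through CK and NaCl+MT alone. These counts and medians are thus a description.

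From NaCl to NaCl+MT, 5 of 10 members were called higher, against 11.6% of tested genes, and 0 lower, against 7.02%. Of all calls in this comparison 62.2% were higher, and 51.5% with quantile normalisation, under which the member counts were the same. Groups did not overlap in 9 members, all higher in NaCl+MT, a pattern found in 21.2% of tested genes. The median of the members was 1.04, beside 0.03 over all tested genes. The same limits, from the choice of members and from nip2b, hold for these counts. For NaCl+MT against CK, limma called 0 of 10 members and 0.961% of all tested genes in either direction. At an unadjusted p under 0.05 it gave 0 of 10 members, beside 2937 higher and 1151 lower of 22379 tested genes. The member median was 0.12, beside 0.07 over all. The 4 members whose values for this comparison are not given above, ZmPIP1-1, ZmPIP2-1, ZmPIP2-4 and ZmPIP2-6, had -0.05, 0.22, 0.17 and 0.22 (limma adjusted p = 0.957, 0.648, 0.823 and 0.751). Of all calls in it, 70.7% were higher, and 45.5% with quantile normalisation or 51.5% with median-ratio scaling.

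**Figure D3:**
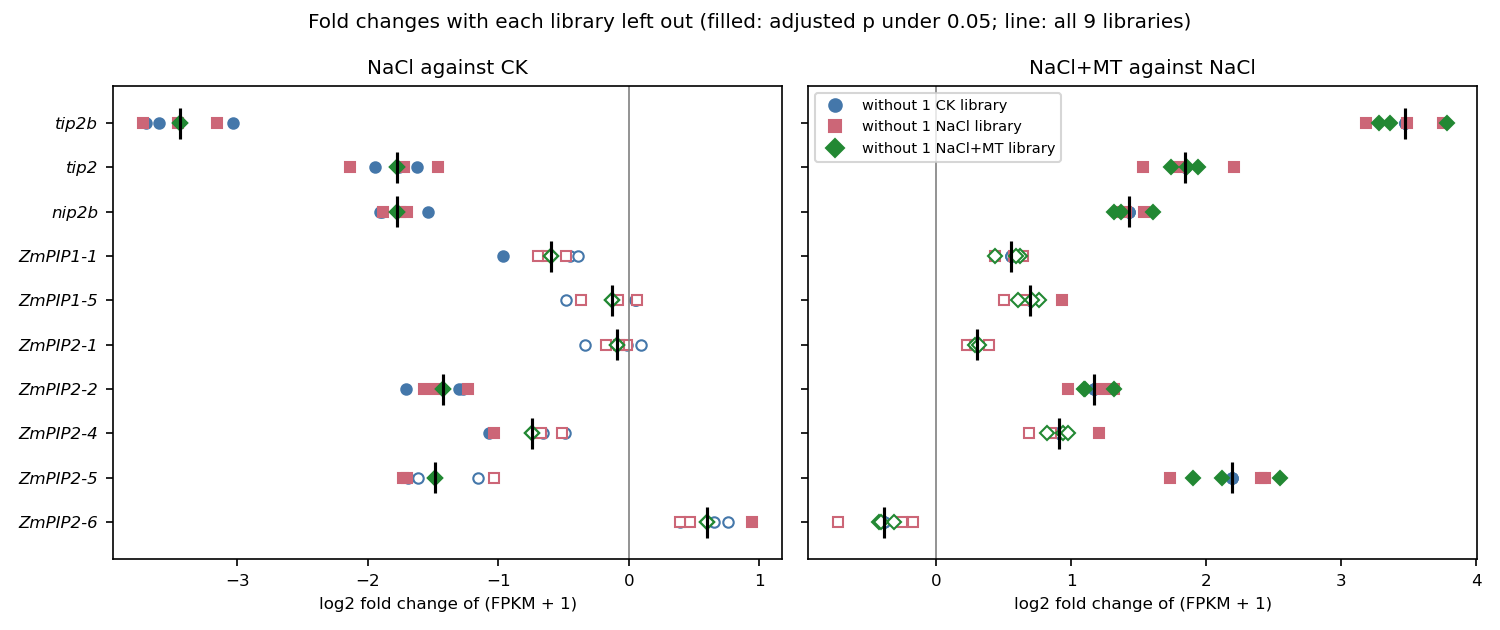
Log2 fold changes of the 10 aquaporin genes when each of the 9 libraries is left out in turn, in panels for NaCl against CK (left) and NaCl+MT against NaCl (right), with marks by the group of the library left out and a vertical line at the value from all libraries. Filled points have an adjusted p under 0.05: tip2b stays filled throughout at -3.72 to -3.03 in NaCl against CK, while ZmPIP2-5 loses its fill without CK replicate 2, CK replicate 3 or NaCl replicate 3.

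The order of the members by mean FPKM was nearly the same in the 3 groups. ZmPIP2-6 led, followed by ZmPIP1-1, ZmPIP2-1, ZmPIP2-4, ZmPIP1-5 and ZmPIP2-2 in each group, and nip2b was last in each. In CK, most neighbours in this order overlapped over their libraries, and the exceptions were ZmPIP2-2 above tip2b and ZmPIP2-5 above nip2b. Places 7 to 9 changed hands: tip2b was above tip2 and ZmPIP2-5 in CK, below both in NaCl, and above both again in NaCl+MT. In NaCl the neighbours that overlapped were ZmPIP1-1 and ZmPIP2-1, ZmPIP2-4 and ZmPIP1-5, tip2 and ZmPIP2-5, and ZmPIP2-5 and tip2b, so ZmPIP2-6 stood clear of the next gene. In NaCl+MT they were ZmPIP2-1 and ZmPIP2-4, tip2b and ZmPIP2-5, and ZmPIP2-5 and tip2.

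The summed PIP level overlapped between the groups, at 962 to 1876 FPKM in CK, 1040 to 1680.0 in NaCl and 1488 to 1776 in NaCl+MT. Its composition did differ between libraries. ZmPIP2-6 made up 31.1%, 26.0% and 26.5% of the PIP sum in CK replicates 1 to 3, and 28.4%, 27.9% and 30.3% in NaCl+MT. In NaCl it made up 50%, 48.3% and 36.3%, each above the highest of the other 6 libraries. ZmPIP1-1 took 22.1%, 26.4% and 25.2% of the sum in CK, 16.5%, 15.8% and 19.0% in NaCl, and 20.8%, 22.5% and 20.3% in NaCl+MT, so each NaCl share was below the rest. A share falls when another member is higher, so these are not separate observations, and no test was made of them.

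**Figure D4:**
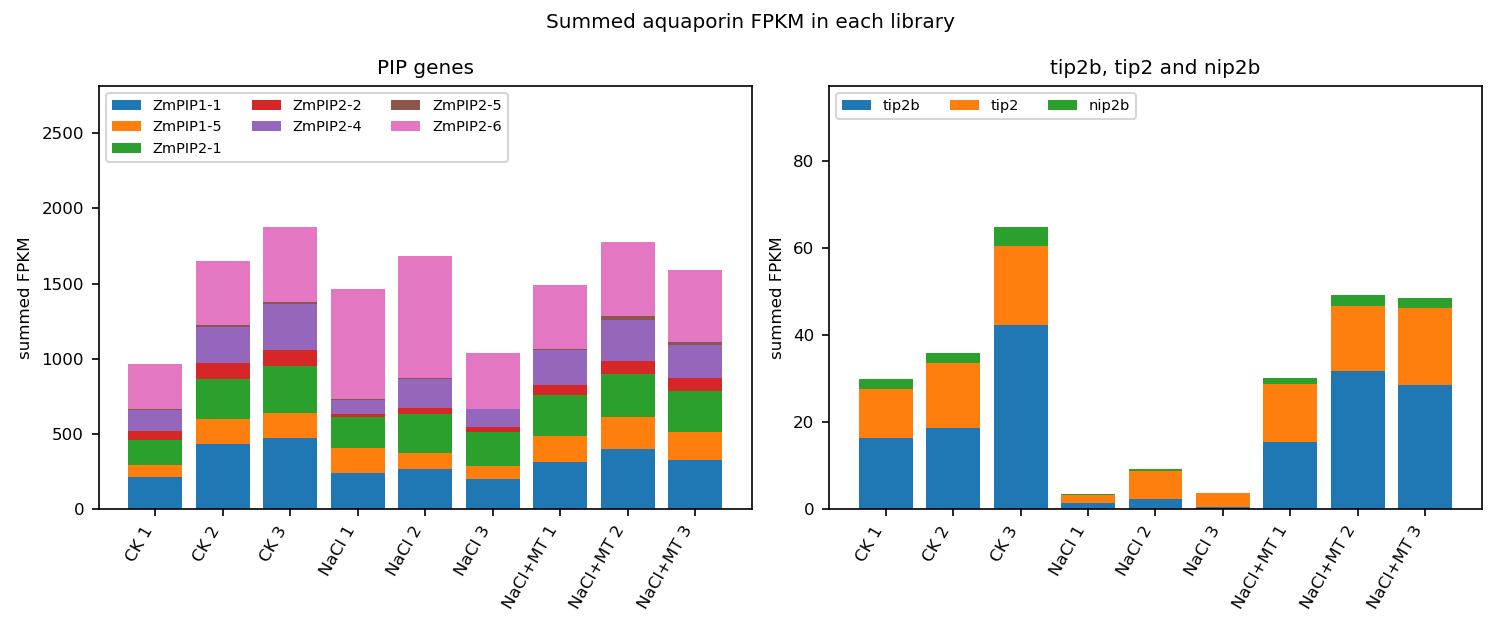
Summed FPKM of the PIP genes (7 members) and of the TIP and NIP genes (3 members) in each of the 9 libraries as stacked bars from 0, with colours for the members. PIP bars overlap between groups (962 to 1876 in CK, 1040 to 1680.0 in NaCl), while the bars of the other panel are lowest in the 3 NaCl libraries.

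Within groups the members shared much of their order over the libraries. CK replicate 1 was the lowest CK library in 10 of 10 members and CK replicate 3 the highest in 10 of 10, while over all tested genes these libraries were the lowest in 28.0% and the highest in 26.1%. NaCl replicate 2 was the highest NaCl library in 8 members (29.0% of tested genes). In NaCl+MT, replicate 1 was the lowest in 8 (41.4%) and replicate 2 the highest in 8 (30.6%). Relative depth was 1, 1.82 and 1.28 in CK replicates 1 to 3. Replicate 1 was thus the shallowest CK library as well as the lowest, and replicate 2, the deepest, was the highest in 0 members. NaCl replicate 3, at a relative depth of 0.538, was the lowest NaCl library in 6 members (25.3% of tested genes), and NaCl replicate 1, at 1.16, in 4 (44.5%). The part of depth in this pattern was not tested.

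Across the 9 libraries, whose 3 groups the values follow, log2(FPKM + 1) of tip2b was most like that of nip2b (Pearson r = 0.98), tip2 (0.949), ZmPIP2-2 (0.92) and ZmPIP2-5 (0.917). ZmPIP2-6 stood apart, with r between -0.392 (nip2b) and 0.341 (ZmPIP1-5). Among 137 tested genes with a symbol, those most like tip2b were the lipoxygenase gene lox11 (r = 0.976), sfp3 (0.944) and the lipoxygenase-family gene lox6 (0.932). The most like ZmPIP2-6 were pco097024a (0.769), CNR10, named as a cell number regulator (0.696), and the phosphate transporter gene pht2 (0.633). These coefficients describe 9 libraries and carry no test.

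Besides the 10 members, 20 genes of the table had an aquaporin name as symbol or synonym, and 16 of them were tested. Against CK, 4 were lower in NaCl (NIP1-1, TIP4-1, TIP4-2 and TIP4-4), where 12.4% of all tested genes were called lower. In the other direction 1 was higher (sip1), where the share was 13.6%. Their median was -0.46, beside 0.03 over all tested genes. Of the 4 lower genes, TIP4-1 and TIP4-4 passed the minimum for testing through CK and NaCl+MT alone, as nip2b did, so their counts and the median are a description. From NaCl to NaCl+MT, 2 rose (NIP1-1 and TIP4-4), against 11.6% of tested genes, and 1 fell (sip1), against 7.02%. The median was 0.41, beside 0.03 over all tested genes. None was called between NaCl+MT and CK, against 0.961% of tested genes in either direction. There TIP4-1 had -0.83 (limma adjusted p = 0.0687), TIP4-2 -0.59 (adjusted p = 0.105), TIP4-4 -0.20 (adjusted p = 0.715) and NIP1-1 0.57 (adjusted p = 0.131). Names of 3 of these genes may stand for something other than an aquaporin. Of the 3, sip1 is also named Zlp, which matched no aquaporin name pattern. Without those 3, the counts were 4 lower and 0 higher, then 2 higher and 0 lower, of 13 tested. The medians were then -0.66 and 0.61.

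By mean level the leading gene outside the 10 was TIP2-1 (GRMZM2G027098), a tonoplast gene of the same group as tip2b. It stood at 546, 853 and 1146 FPKM in CK, 539, 667 and 381 in NaCl, and 811, 848 and 709 in NaCl+MT. CK and NaCl libraries overlapped and the change was not called (log2 fold change -0.65, SE 0.31, limma adjusted p = 0.141; 0.61 from NaCl to NaCl+MT, adjusted p = 0.198). In CK it thus had a higher level than any of the 10 members, and it stayed above 380 FPKM in each NaCl library. All its NaCl libraries lay below all its NaCl+MT libraries. Next by level was sip1 (GRMZM2G374971), which may not be an aquaporin gene. It was higher in NaCl than in CK by 1.57 (SE 0.30, limma adjusted p = 0.00415). From NaCl to NaCl+MT it was lower, with a log2 fold change of -1.03 (SE 0.30, adjusted p = 0.0388).

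The next genes by level were not called. PIP1-3 (GRMZM2G392975, also named PIP1-4) had log2 fold changes of 0.33 with salt (limma adjusted p = 0.242) and 0.03 from NaCl to NaCl+MT (adjusted p = 0.945). SIP1-1 (GRMZM2G113470), of the small basic intrinsic proteins found in the endoplasmic reticulum, had 0.19 (adjusted p = 0.464) and 0.26 (adjusted p = 0.349). The PIP2 gene pip2c (GRMZM2G081192, also named ZmPIP2-3) had -0.66 (adjusted p = 0.174) and 1.01 (adjusted p = 0.0617). PIP genes are close copies of each other, and how reads shared between them were counted is not given in the sources used here, so the split of reads among PIPs is uncertain.

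Other genes were looked at from lists of proteins that share the aquaporins' membranes or loosen the walls of cells taking up water. Over all tested genes, 13.6% were called higher and 12.4% lower with salt. The plasma membrane proton ATPase list had 4 tested genes, of which pma1 rose with salt (0.44, limma adjusted p = 0.0383) and none was called from NaCl to NaCl+MT; ha2 in that list is a synonym of a starch synthase gene, not a pump. Its most abundant members, mha2 and mha4, gave 0.26 (adjusted p = 0.333) and 0.02 (adjusted p = 0.945) with salt. Of 4 tested genes on the vacuolar proton pump list, which includes the non-pump gene VAP27, none was called; the pyrophosphatase genes vpp3 and vpp1 gave -0.25 (adjusted p = 0.293) and -0.97 (adjusted p = 0.106). At an unadjusted p under 0.05, limma gave 1 of these 4 lower with salt and 0 in the other comparisons. Of 22379 tested genes, 4084 were lower with salt at that threshold.

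Expansins, which loosen cell walls, split by gene. With salt 3 of 12 tested rose and 2 fell, against 13.6% and 12.4% of all tested genes. From NaCl to NaCl+MT 4 rose and 1 fell, against 11.6% and 7.02%. The most abundant, expa2, rose by 1.62 with salt (limma adjusted p = 0.00244) and differed by -0.78 from NaCl to NaCl+MT (adjusted p = 0.0826), and expB2 differed by 0.29 with salt (adjusted p = 0.36). Both xyloglucan endotransglucosylase genes, whose enzymes cut and rejoin wall xyloglucan, fell with salt, with log2 fold changes of -2.50 for xet1 (limma adjusted p = 0.00327) and -2.19 for xth1 (adjusted p = 0.0022). Only xth1 was called higher in NaCl+MT than in NaCl (2.71, adjusted p = 0.000954), while xet1 differed by 1.40 (adjusted p = 0.059).

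**Figure D5:**
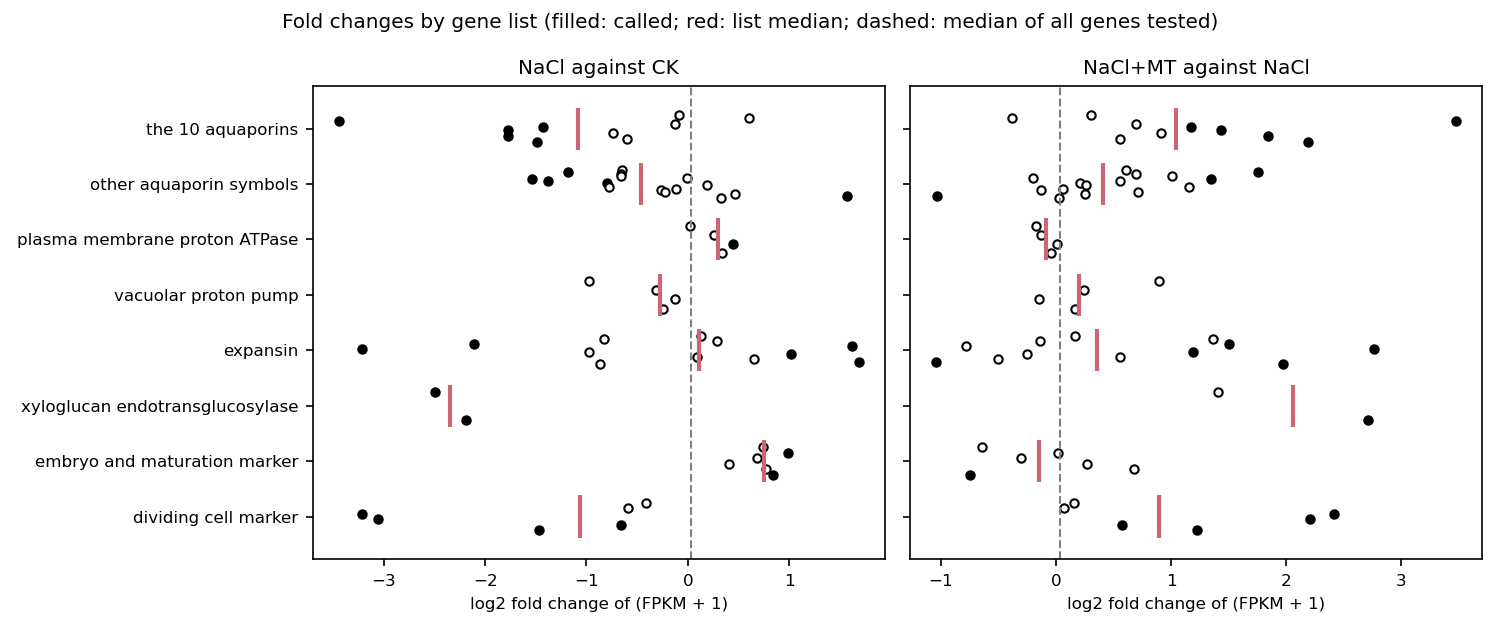
Log2 fold changes of the tested genes of each list in NaCl against CK (left) and NaCl+MT against NaCl (right), 1 row per list and 1 point per gene, filled where the adjusted p is under 0.05. A red mark gives the list's median and a dashed line the median of all tested genes; the aquaporin members have medians of -1.08 and 1.04.

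Among the cell type markers, those of dividing cells differed between NaCl and either other group in the direction of the called aquaporin genes. The 6 dividing-cell genes, all tested, summed to 183.6 to 261 FPKM in CK, 66.1 to 138.6 in NaCl and 167 to 201 in NaCl+MT. Of them, 4 were called lower with salt, against 12.4% of tested genes, and 4 higher from NaCl to NaCl+MT, against 11.6%. The most abundant, the histone gene his2b2, had log2 fold changes of -1.47 (limma adjusted p = 0.0156) and 1.22 (adjusted p = 0.0428), and pcna2, for a replication clamp, had -0.66 (adjusted p = 0.019) and 0.57 (adjusted p = 0.0437). With salt, pcna1 had -0.59 (limma adjusted p = 0.0733) and kn1 -0.41 (adjusted p = 0.2). From NaCl to NaCl+MT these had 0.07 (adjusted p = 0.866) and 0.16 (adjusted p = 0.676). Between NaCl+MT and CK none of the 6 was called, against 0.961% of tested genes. All 6 fold changes in it were negative, with a median of -0.39, beside 0.07 over all tested genes. The other genes called with salt, the cyclin genes cyc1 and cyc3, had -3.21 (adjusted p = 1.33e-05) and -3.06 (adjusted p = 2.17e-05). Both reached 1 FPKM in the 6 libraries of CK and NaCl+MT alone, so the counts that include them are a description.

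Embryo and maturation genes (6, all tested) did not follow that pattern. They summed to 43.1 to 59.9 FPKM in CK, 84.3 to 107.8 in NaCl and 63.1 to 94.7 in NaCl+MT, so the NaCl+MT sums were above all CK sums. With salt 2 of the 6 were called higher, against 13.6% of tested genes. From NaCl to NaCl+MT 1 was called lower, against 7.02%, with 3 positive and 3 negative fold changes. Between NaCl+MT and CK 1 was called higher, EMB5 (1.45, limma adjusted p = 0.0368), against 0.961% called in either direction. The most abundant, rab17, a dehydrin gene, had 0.69 with salt (adjusted p = 0.0544) and -0.31 from NaCl to NaCl+MT (adjusted p = 0.406). Next was GLB1, a haemoglobin gene and no storage globulin, with 0.74 (adjusted p = 0.0625) and -0.65 (adjusted p = 0.12). The sums and counts above include GLB1, whose mean was 7.97 FPKM in CK, 14.8 in NaCl and 8.58 in NaCl+MT. Endosperm genes (4 in the table, 2 tested) summed to 2.81 to 4.97 over the 9 libraries, and o2, 1 of the 4, was listed at 0 in all. A marker at 0 does not show that its tissue was absent. Neither tested endosperm gene was called, bt2 having -0.40 (adjusted p = 0.0873) and sh2 0.06 (adjusted p = 0.794) with salt. The part of these cell types in the values of the aquaporin genes was not tested.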

How the data were processed

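RNA was sequenced from 9 maize seed libraries, 3 per group. Per the labels, RNA was extracted with a Tiangen kit and mRNA libraries were made with an NEB kit. The deposited values are FPKM, computed by the authors; per the submitters' processing notes HISAT2, featureCounts, DESeq2 and the build B73 RefGen_v3 were used, without versions or roles. Strand use in counting is not given in the sources used here. An unnamed, empty last column was not used (1 column).

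Of the gene IDs, 18908 matched a RefSeq gene table of Zm-B73-REFERENCE-NAM-5.0, 18387 of them to exactly 1 gene; it served for names alone. Protein, promoter and genome sequences were not used here, and the planned protein search and promoter motifs were not run. Aquaporin relatives were thus taken by symbol or synonym (30 of 34 such RefSeq genes matched).

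limma 3.58.1 in R 4.3.3 fitted log2(FPKM + 1), as 3 group means with the variance trended on the mean, for genes that reached 1 FPKM in 3 or more libraries. The labels call the replicates biological without naming their origin, so p-values measure the spread between these libraries. The members and the lists were chosen with earlier results of these data known. Named genes were all 10 members, the 5 other aquaporin-symbol genes and 2 genes per further list, markers included, with the highest mean FPKM, and 3 genes most like tip2b and most like ZmPIP2-6; pma1, pcna1, kn1, cyc1, cyc3, EMB5, NIP1-1, TIP4-1, TIP4-2 and TIP4-4 were added after their values were seen. Alternatives were other pseudocounts (0.1, 0.5), other filters (none, or 5 FPKM), other scalings (median-ratio, constant library sums, quantile normalisation), no trend, array weights, the replicate block, the 2 compared groups alone, each library left out, and NaCl replicate 2 as the lone NaCl library. Leaving out the 3 genes of uncertain symbol was chosen after seeing the data.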

Additional observations from a re-analysis of the deposited data

How the results depend on the processing

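The calls of tip2b and tip2 with salt (NaCl against CK) and from NaCl to NaCl+MT were kept under all 21 alternatives, and that of nip2b in NaCl against CK under all 20 that could be run, since nip2b drops out at a minimum of 5 FPKM. Left out in turn, the libraries gave 4 to 7 members called in NaCl against CK, 5 to 6 in NaCl+MT against NaCl and 0 in NaCl+MT against CK. With NaCl replicate 2 as the lone NaCl library, assumed to vary like the other groups, members called were 2 in NaCl+MT against NaCl. ZmPIP2-2 then had an adjusted p of 0.0566 in NaCl against CK and 0.154 in NaCl+MT against NaCl, and ZmPIP2-5 0.218 and 0.0611. In that setting nip2b lost its call in NaCl+MT against NaCl (1.22, adjusted p = 0.0525), and ZmPIP2-6 was called higher in NaCl against CK (1.02, adjusted p = 0.0499). Without a filter on low values ZmPIP2-5 in NaCl against CK had 0.0663. Array weights called 1 member, ZmPIP2-5, in NaCl+MT against CK (1.02, adjusted p = 0.0316), and 6 in NaCl+MT against NaCl, where ZmPIP1-5 was gained.

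Values near 0 changed sign. With median-ratio scaling tip2b and tip2 gave -0.056 and -0.015 in NaCl+MT against CK. Quantile normalisation gave ZmPIP2-1 0.011 in NaCl against CK and ZmPIP1-1 0.027 in NaCl+MT against CK, and the lone NaCl library gave ZmPIP2-1 0.0901. Leaving out 1 library gave -0.48 to 0.062 for ZmPIP1-5 and -0.34 to 0.093 for ZmPIP2-1 in NaCl against CK. In NaCl+MT against CK it gave -0.22 to 0.44 for tip2b, -0.10 to 0.22 for tip2, -0.41 to 0.17 for ZmPIP1-1, -0.031 to 0.40 for ZmPIP2-1 and -0.16 to 0.42 for ZmPIP2-4. The cause was not tested.

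Over all tested genes, NaCl+MT against CK was the least stable, with 215 calls. It had 54 with no filter, 123 at 5 FPKM, 136 with median-ratio scaling, 3663 with array weights, 1082 with the 2 groups alone, 1068 with the lone NaCl library, and 6 to 875 with 1 library left out. NaCl against CK had 5808 calls, 3684 at 5 FPKM and 2597 with the lone library. NaCl+MT against NaCl had 4164, 2605 at 5 FPKM, 1754 with the lone library and 2325 to 4336 with 1 left out. Other aquaporin-symbol genes called in NaCl against CK were 5, and 2 at 5 FPKM. In NaCl+MT against NaCl they were 3, with 6 under array weights, 1 with the lone library and 2 to 5 with 1 left out. In NaCl+MT against CK they were 0, with 2 under quantile normalisation, 5 under array weights, 2 with the 2 groups alone, 2 with the lone library and 0 to 1 with 1 left out.

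With the replicate number as a block, members called were 5, 6 and 0 in the 3 comparisons, and genes called 4934, 3498 and 72. Same-numbered libraries had deviations that correlated at -0.368 to 0.145 and differently numbered ones at -0.221 to 0.244, so the libraries share a number and are not shown to be paired. In NaCl nip2b lies near 0, and with the absolute depth unknown its level there has no counting interval.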
